A study of Mus musculus with 24 samples.

Results

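The Rab family was read from ATAC-seq peaks, which mark chromatin open to Tn5 transposase, in mouse bone marrow-derived macrophages. Members were the RefSeq protein-coding genes whose symbol is Rab followed by 1 or 2 digits and at most 2 further letters or digits. There were 61 such genes among 21887 protein-coding genes on chromosomes 1 to 19, X and Y. Of them 59 encode Rab GTPases. Rab3ip, an exchange factor for Rab8, and Rab5if, a membrane protein named for its interaction with Rab5, match the symbol pattern but are not GTPases. A peak was assigned to a member when that gene's body was the nearest protein-coding gene body to the peak summit and lay within 50 kb. This gave 4364 of 1274891 peaks.

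Macrophages came from male C57Bl/6 mice, either made diabetic with streptozotocin, a toxin of insulin-producing beta cells, or non-diabetic controls. Cells were left unstimulated or exposed to both LPS (bacterial lipopolysaccharide, 100 ng/mL) and IFNγ (interferon gamma, 10 ng/mL), which together drive inflammatory macrophage activation. Unstimulated control, unstimulated diabetic, stimulated control and stimulated diabetic macrophages gave 6 libraries each, 24 in all. The duration of stimulation is uncertain, because the protocol text names a 6 h culture with IL-1β, which matches no other label. Per the series text each mouse sample was split between both states, but the labels do not tie a replicate number to 1 mouse. The libraries were therefore compared unpaired, which leaves the sharing of mice between states out of the tests.

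Rab GTPases are molecular switches that label the membranes of the secretory and endocytic pathways. Exchange factors (GEFs) load them with GTP, GTPase-activating proteins (GAPs) switch them off, a prenyl anchor holds them on the membrane, and effectors bound to the active form tether, move and fuse vesicles. In macrophages they direct phagosome maturation, recycling of surface receptors and secretion of inflammatory mediators.

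The promoters of 6 Rab genes are shown first, because their start peaks stood highest within the peak lists. A start peak is a peak whose summit lay within 1 kb of a transcription start in the RefSeq promoter table. Each sequence is the 250 bases before the start, written 5′ to 3′ along the gene, from RefSeq on GRCm38.p6 (the chromosomes of mm10). Capitals mark CpG dinucleotides. Rab5b acts in the formation and fusion of early endosomes, Rab2b acts between the ER and the Golgi, Rab11b, Rab4b and Rab8a serve recycling and delivery to the plasma membrane, and Rab39 acts on Golgi and autophagy routes. The windows are chr10:128696269-128696518 (minus strand) for Rab5b, chr14:52279396-52279645 (minus) for Rab2b, chr17:33760487-33760736 (minus) for Rab11b, chr7:27178884-27179133 (minus) for Rab4b, chr8:72160950-72161199 (plus) for Rab8a and chr9:53706233-53706482 (minus) for Rab39.
Rab5b: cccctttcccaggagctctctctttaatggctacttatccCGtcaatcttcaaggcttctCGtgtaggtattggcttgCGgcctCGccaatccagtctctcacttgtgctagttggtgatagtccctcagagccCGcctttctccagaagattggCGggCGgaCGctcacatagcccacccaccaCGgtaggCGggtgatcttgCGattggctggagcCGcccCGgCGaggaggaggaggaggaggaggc
Rab2b: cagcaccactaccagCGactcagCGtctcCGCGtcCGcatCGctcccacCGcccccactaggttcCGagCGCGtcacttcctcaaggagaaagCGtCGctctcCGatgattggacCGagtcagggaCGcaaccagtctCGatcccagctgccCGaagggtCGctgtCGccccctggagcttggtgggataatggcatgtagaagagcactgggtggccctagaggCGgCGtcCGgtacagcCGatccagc
Rab11b: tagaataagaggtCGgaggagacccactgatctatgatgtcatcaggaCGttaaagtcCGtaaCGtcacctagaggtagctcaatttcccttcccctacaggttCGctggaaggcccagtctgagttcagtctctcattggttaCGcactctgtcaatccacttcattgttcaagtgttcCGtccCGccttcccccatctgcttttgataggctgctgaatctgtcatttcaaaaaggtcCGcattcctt
Rab4b: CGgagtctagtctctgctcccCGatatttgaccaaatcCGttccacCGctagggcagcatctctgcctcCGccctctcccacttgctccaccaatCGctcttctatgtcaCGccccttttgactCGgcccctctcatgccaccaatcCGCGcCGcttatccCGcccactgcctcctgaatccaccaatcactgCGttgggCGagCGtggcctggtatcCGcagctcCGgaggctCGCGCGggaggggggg
Rab8a: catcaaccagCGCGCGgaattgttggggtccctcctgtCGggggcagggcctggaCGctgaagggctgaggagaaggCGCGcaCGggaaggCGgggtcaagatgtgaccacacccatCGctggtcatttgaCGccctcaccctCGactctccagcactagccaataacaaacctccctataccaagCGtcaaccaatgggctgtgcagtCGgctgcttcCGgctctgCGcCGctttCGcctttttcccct
Rab39: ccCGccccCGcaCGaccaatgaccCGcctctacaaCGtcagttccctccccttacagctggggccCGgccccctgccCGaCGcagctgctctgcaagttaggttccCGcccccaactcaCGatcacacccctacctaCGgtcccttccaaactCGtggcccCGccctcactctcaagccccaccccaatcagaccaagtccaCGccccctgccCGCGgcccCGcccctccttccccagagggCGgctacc

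These 6 promoters held between 9 and 23 CpG dinucleotides in 250 bases, with Rab11b lowest and Rab2b highest. Over the 62 promoters of the 50 members in the table the median was 15.5 CpG and 60.6% GC. All protein-coding promoters had medians of 10.0 CpG and 55.6% GC, and promoters of genes with a start peak in all 24 libraries had 17 CpG and 60.4% GC. By base composition the Rab promoters stood near this constantly open class. Of the 50 members 40 belong to that class themselves, so the likeness is partly built in.

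Promoter letters were searched on both strands in 300 bases, from 250 before to 50 after the start, and a match describes letters and not a bound site. The NF-kB pattern (GGGA and CC parted by 4 bases of any kind) was in 16.1% of Rab promoters against 23% of all promoters. The ISRE core (GAAA and GAAA parted by 2 bases of any kind) was in 1.61% against 3.35%, AP-1 TGANTCA in 4.84% against 6.99%, and the TATA box TATAAA in 6.45% against 12.6%. The ETS core AGGAAGT, bound by PU.1, was in 9.68% against 9.07%, the CRE TGACGTC in 4.84% against 3.84%, and the E-box CACGTG in 9.68% against 7.84%. Matches of different patterns may overlap in a promoter. Among the 6 printed genes Rab2b held the ETS core, 175 bases before its start and on the opposite strand, and Rab11b held the NF-kB pattern after its start, outside the printed bases.

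Start peaks were present in all 24 libraries for 40 of the 50 members with a start in the table (80.0%). The same held for 8094 of 17492 protein-coding genes (46.3%). Another 6 members had a start peak in some libraries. Rab3c had one in 23, Rab3b and Rab40b in 22, Rab34 in 14, Rab19 in 4 and Rab39b in 1. The remaining 4 members, Rab17, Rab25, Rab9b and Rab33a, had none (8.0%, against 38.2% of all genes). Rab25 and Rab9b had no peak by the assignment rule either, whereas Rab17 and Rab33a had assigned peaks in all 24 libraries. For both Rab17 and Rab33a the table places the start inside the gene body.

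The deposited fold enrichment of a peak over its local background is the authors' own value and was ranked only within each list. The start peak of Rab5b reached a fold of 15.6 (median; 10.99 to 17.16 over libraries), at the 98.29th percentile of its lists. Rab2b followed with 15.1 (10.95 to 17.69; 97.82nd percentile). Both start peaks lie nearest to a neighbouring gene body, Pmel for Rab5b and Tox4 for Rab2b, so the assignment rule gave these members 0 peaks. The Rab6a start peak was likewise found in all 24 libraries but lay mostly nearest to Mrpl48. Rab11b had a median fold of 14.1, Rab8a of 13.5, Rab4b of 13.2 and Rab39 of 12.6. At the lower end of the members open in all libraries, Rab35 had a fold of 4.85 (22.76th percentile) and Rab20 of 5.04 (27.03rd percentile), followed by Rab15 and Rab31. The median percentile of the 40 constant start peaks was 85.51, against 81.29 for the 8094 genes.

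By the assignment rule 57 members had at least 1 peak, and 50 of them had a peak in every library. Rab5b, Rab2b, Rab25 and Rab9b had none. Rab31, which moves cargo from the trans-Golgi network to endosomes, had the most, with a mean of 12 peaks per library. Rab3c, a GTPase of regulated exocytosis, had 10.9, Rab8b 7, Rab20 6.67, Rab7 6.04 and Rab38 5.63. Peak number followed gene length, with a Spearman rho of 0.62 across the 61 members and 0.539 across all protein-coding genes. This is a correlation across genes, which share libraries and are not independent replicates. Rab3c spans 226810 bp and Rab31 121027 bp.

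**Figure D1:**
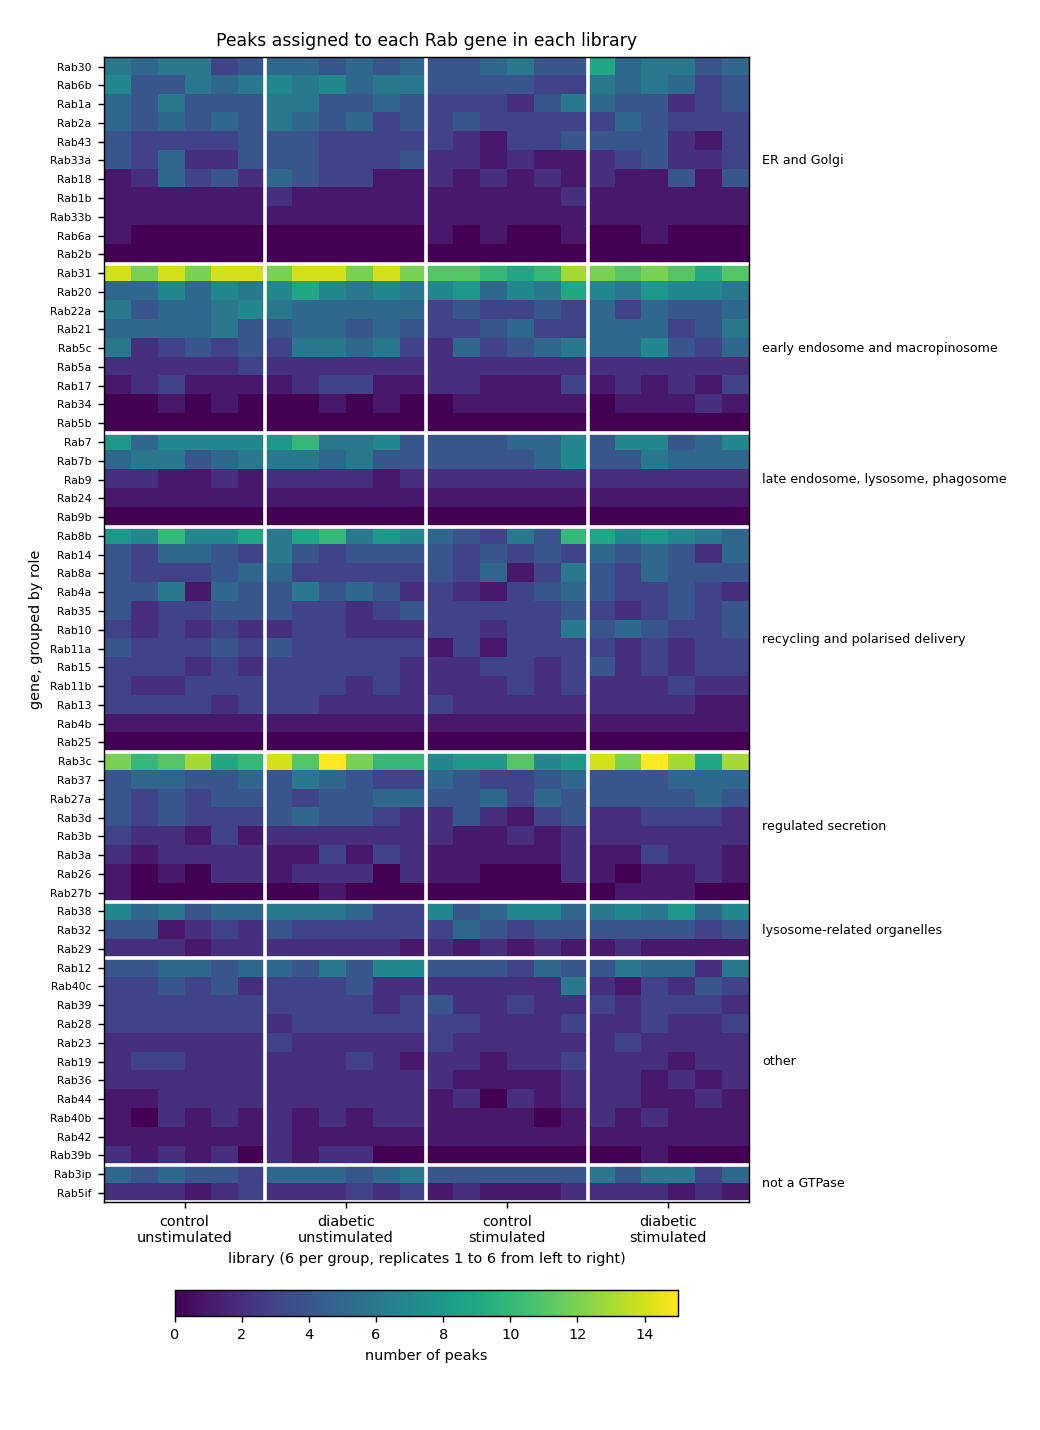
Number of peaks assigned to each of the 61 members (vertical axis, grouped by role) in each of the 24 libraries (horizontal axis, 6 per group); the colour scale gives the number of peaks. Rab31 and Rab3c form the brightest bands, at means of 12 and 10.9 peaks, and the bottom band of several groups is a member with 0 peaks.

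Rab peaks numbered 170 to 207 (median 190.5) per unstimulated control library, 172 to 211 (197.5) per unstimulated diabetic, 141 to 198 (155.5) per stimulated control and 157 to 204 (182.0) per stimulated diabetic library. Stimulated control libraries were low, apart from replicate 6 at 198, and the groups overlapped. Their whole lists were also the shortest, at 47268 ± 4535 peaks (SD, n = 6) against 53703 ± 4511 in stimulated diabetic, 55990 ± 3486 in unstimulated control and 55522 ± 4925 in unstimulated diabetic libraries. Per 1000 peaks, Rab peaks were 3.38 ± 0.0889, 3.52 ± 0.112, 3.39 ± 0.140 and 3.40 ± 0.109 (SD, n = 6 each) in unstimulated control, unstimulated diabetic, stimulated control and stimulated diabetic libraries. The ranges of this share overlapped between all groups. With lists of equal length the stimulated control mean was 143 Rab peaks, against 144.2 in unstimulated control, 147.2 in unstimulated diabetic and 146 in stimulated diabetic libraries. Read totals were not given in the sources used here, so depth could not be set beside these counts.

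**Figure D2:**
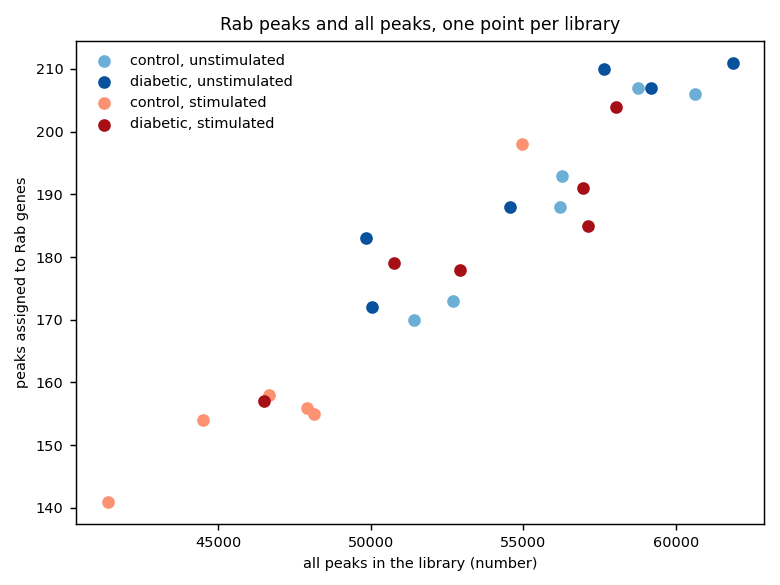
Peaks assigned to Rab genes (vertical axis, number) against all peaks of the library (horizontal axis, number), 1 point per library, coloured by group. Libraries with longer lists hold more Rab peaks, and 5 of the 6 stimulated control libraries lie between 141 and 158 Rab peaks, at the lower left.

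Lists held 41385 to 61861 peaks. Macrophage markers were checked against the label: the 12 genes summed to 46 to 73 peaks per library, and 11 of them had a peak in every library and Lyz2 in 18. Of the 7 genes with a start in the table, Cd68, Mertk, Fcgr1 and Itgam had a start peak in all 24 libraries. Cx3cr1 had one in 22, Lyz2 in 18 and Mrc1 in 12. Macrophage marker peaks numbered 62 to 70 in unstimulated control, 61 to 73 in unstimulated diabetic, 46 to 65 in stimulated control and 50 to 67 in stimulated diabetic libraries. Neutrophil markers summed to 2 to 7 peaks, with no start peak in any library for 6 of 8 genes, Ly6g, Elane and Mpo among them, but one for Camp in 24 and for S100a8 in 22. T and NK cell markers summed to 5 to 10 peaks, with no start peak for Cd3e, Cd3d, Cd3g, Cd8a, Ncr1 and Lck, and one for Tbx21 in 8 libraries. B cell markers summed to 2 to 10 peaks, and of the 3 genes with a start in the table Pax5 and Cd79a had no start peak and Ebf1 one in 18 libraries. Erythroid and megakaryocytic markers summed to 5 to 10 peaks, mast cell markers to 1 to 6, dendritic markers to 11 to 17 and stromal and endothelial markers to 14 to 27. In these lists Pf4 had a start peak in 24 libraries, Flt3 and Kdr in 23 and Gata2 in 15, while Klf1, Hba-a1, Cpa3, Mcpt8, Zbtb46, Xcr1, Pdgfra and Col1a2 had none. Any part of these cells in the results was not tested.

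Peaks of all libraries were merged into regions, and each library was scored for whether it held a peak in a region. Regions found in at least 2 libraries numbered 80598, of which 267 were assigned to members. Of these, 82 (30.7%) were found in all 24 libraries, against 28.3% of all regions. A region is called gained or lost where stimulated and unstimulated libraries differed in how many held it, at an adjusted p under 0.05 (Fisher's exact test per region, two-sided, Benjamini-Hochberg over all testable regions). A region without a peak was below the authors' calling threshold, which does not show closed chromatin, and the nearest gene need not be the one a region acts on.

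With both phenotypes pooled, 12 stimulated against 12 unstimulated libraries, 98 of the 267 Rab regions could be tested. Stimulation came with 8 gained and 16 lost regions. The 24 calls are 24.5% of those tested, and over all regions 28.1% were called (9.19% gained and 18.9% lost). The median difference in libraries was 0.0 for the Rab regions and 0.0 for all regions. Of the Rab calls 66.7% were losses, against 67.3% of all calls, so neither the number of calls nor their direction set the family apart from the background. Calls fell at 20 members. Rab10, Rab20, Rab35, Rab37, Rab38, Rab22a and Rab8b held gained regions. Rab1a, Rab2a, Rab6b, Rab18, Rab33a, Rab21, Rab22a, Rab31, Rab7, Rab8b, Rab29, Rab36, Rab39, Rab39b and Rab5if held lost ones, so that Rab22a and Rab8b held both. When all lists were cut to the 41385 strongest peaks, 9 regions were gained and 14 lost, with 29.1% of all regions called, and 19 of the 24 calls were kept. Losses were then 60.9% of the Rab calls and 54.8% of all calls. Over 5 alternatives 8 calls held in each, at Rab6b, Rab33a, Rab7, Rab1a, Rab38 (both regions) and Rab22a (both regions inside the gene), and 16 were lost in at least 1. Without stimulated control replicate 6, the longest list of its group, 25 regions were lost in place of 16.

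**Figure D3:**
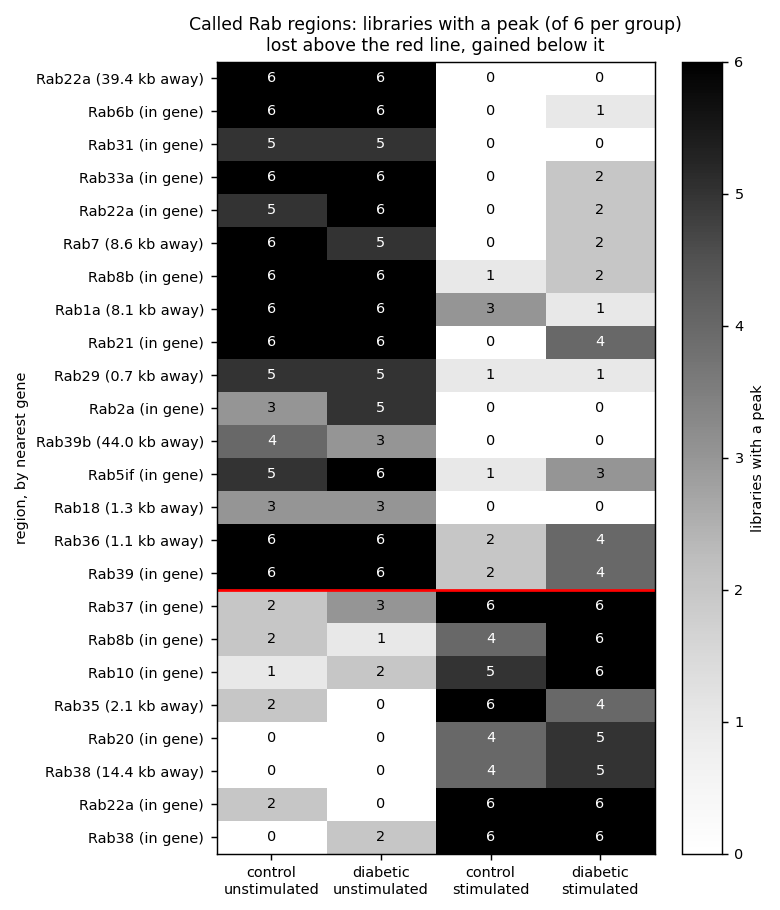
Number of libraries with a peak (0 to 6, grey scale and digits) in each group (horizontal axis) for the 24 called Rab regions (vertical axis, by nearest gene and distance to its body). The 16 lost regions stand above the red line and the 8 gained ones below it; Rab22a at 39.4 kb is the region found in all 12 unstimulated and 0 of 12 stimulated libraries.

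Calls are given next by role, and each role rests on 6 to 22 tested regions. Over all tested regions 9.19% were gained and 18.9% lost, and no role was tested against these shares. Among the early endosome Rabs 4 of 9 members held calls, with 2 regions gained and 4 lost of 22 tested. Rab22a, which sorts cargo at early endosomes and is a close relative of Rab31, held 3 of these. At chr2:173620328-173620732, 39362 bp before the gene, a peak was found in 6 of 6 unstimulated control and 6 of 6 unstimulated diabetic libraries, and in 0 of 6 and 0 of 6 stimulated ones. Its fold ran from 3.62 to 6.14 (median 4.57), and the groups did not overlap (adjusted p = 6.17e-05, Fisher's exact test). With lists of equal length, 8 unstimulated and 0 stimulated libraries held it (adjusted p = 0.0092). The same numbers were found at −log10 q of at least 5 (adjusted p = 0.0094). Where peaks had to cover most of the region, that call ended (adjusted p = 0.0555). Inside the gene, 17319 bp after its start, chr2:173676934-173677326 was lost, going from 5 control and 6 diabetic unstimulated libraries to 0 and 2 stimulated ones (adjusted p = 0.00622). A short way further on, 20495 bp after the start, chr2:173680123-173680505 was gained, from 2 control and 0 diabetic unstimulated libraries to 6 and 6 (adjusted p = 0.00128). The gained peak had a fold of 5.04 to 8.22 (median 7.10) in the stimulated libraries, while the lost one had 4.71 to 7.92 (median 6.75) in the unstimulated libraries. Rab22a thus lost and gained peaks within 1 gene body.

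Rab31 lost a region inside the gene, chr17:65737225-65737491, found in 5 control and 5 diabetic unstimulated libraries and in 0 stimulated ones (adjusted p = 0.00128, Fisher's exact test). Its peaks were weak, with a fold of 3.86 to 5.02, and the call ended with lists of equal length (adjusted p = 0.0938). Rab20, a Rab of phagosome maturation, gained chr8:11458239-11458721, 20244 bp after its start. No unstimulated library held it, and 4 control and 5 diabetic stimulated libraries did, at a fold of 3.80 to 5.73 (adjusted p = 0.00388). This call too ended with lists of equal length (adjusted p = 0.0938). Rab20 also held 4 regions found in all 24 libraries, so the gained peak was added to a gene already open at its start. Rab21, which acts in integrin uptake, lost chr10:115311317-115311601, from 6 and 6 unstimulated libraries to 0 control and 4 diabetic stimulated ones (adjusted p = 0.0101), a call that ended at −log10 q of at least 5 (adjusted p = 0.0881).

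ER and Golgi Rabs held 5 lost and 0 gained regions of 17 tested, at 5 of 11 members. Over all regions 28.1% of those tested were called, and 67.3% of the calls were losses. Rab6b, a Golgi transport Rab, lost chr9:103183846-103184221 near the end of its gene body, 71963 bp after the start. All 12 unstimulated libraries held it, at a fold of 4.29 to 7.34 (median 5.52), and 1 diabetic stimulated library did, at 3.80 (adjusted p = 3.03e-04, Fisher's exact test). Rab33a, a Golgi Rab with a link to autophagy, lost chrX:48521676-48522005, from 6 and 6 unstimulated libraries to 0 control and 2 diabetic stimulated ones (adjusted p = 0.00128). Its fold was 5.05 to 8.10 in unstimulated and 4.12 and 5.72 in the 2 stimulated libraries with a peak. Rab1a, which drives ER-to-Golgi transport, lost chr11:20193023-20193637, 8131 bp before its start. It went from 6 and 6 unstimulated libraries to 3 control and 1 diabetic stimulated ones (adjusted p = 0.0101). Rab2a, which works at the same step, lost chr4:8589310-8589716, from 3 control and 5 diabetic unstimulated libraries to 0 (adjusted p = 0.0101). With lists of equal length 0 stimulated and 3 unstimulated libraries held the Rab2a region, which then could not be tested. At −log10 q of at least 5 its call also ended (adjusted p = 0.0881). Rab18, known on lipid droplets and the ER, lost a region 1306 bp from its gene, found in 3 and 3 unstimulated libraries and in 0 stimulated ones (adjusted p = 0.0489). The Rab18 call held in 0 of the 5 alternatives.

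Late endosome and lysosome Rabs had 1 call among 6 tested regions. Rab7, which governs fusion with lysosomes, lost chr6:88053761-88054130, 8641 bp before its gene. The peak was in 6 control and 5 diabetic unstimulated libraries, at a fold of 4.97 to 8.75 (median 6.93), and in 0 control and 2 diabetic stimulated ones (adjusted p = 0.00622, Fisher's exact test). Rab7b, Rab9, Rab24 and Rab9b had no called region.

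Rabs of lysosome-related organelles had 2 gained and 1 lost region of 7 tested. Both gains lay at Rab38, a Rab of melanosomes and related organelles. Inside the gene, chr7:88468417-88468967 was found in 0 control and 2 diabetic unstimulated libraries and in 6 and 6 stimulated ones (adjusted p = 0.00128, Fisher's exact test). Its fold was 5.81 to 9.79 (median 8.80) in stimulated libraries and 4.88 and 5.19 in the 2 unstimulated libraries with a peak. The other unstimulated libraries held no peak and so gave no fold. A second region, chr7:88505871-88506140, lay 14432 bp outside the gene and was found in 0 unstimulated, 4 control stimulated and 5 diabetic stimulated libraries (adjusted p = 0.00388). Rab29, which acts at the trans-Golgi network and lysosomes together with the kinase Lrrk2, lost chr1:131866388-131866760, 747 bp before its start, from 5 and 5 unstimulated to 1 and 1 stimulated libraries (adjusted p = 0.0209). Rab32, the closest relative of Rab38, had no call.

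Recycling and delivery Rabs had 3 gained and 1 lost region of 17 tested, at 3 of 12 members. Rab8b, a Rab of exocytic delivery, held 1 of each. It lost chr9:66877176-66877757, 42101 bp into the gene, from 6 and 6 unstimulated libraries to 1 control and 2 diabetic stimulated ones (adjusted p = 0.00388, Fisher's exact test). It gained chr9:66918474-66919042, 951 bp after the start, from 2 control and 1 diabetic unstimulated libraries to 4 and 6 stimulated ones (adjusted p = 0.0489). Rab10, which carries Toll-like receptor 4 to the cell surface, gained a region 27277 bp after its start, chr12:3282516-3282928, from 1 and 2 unstimulated to 5 control and 6 diabetic stimulated libraries (adjusted p = 0.0184). Rab35, a Rab of fast recycling, gained chr5:115629700-115630002, 2137 bp before its start, from 2 control and 0 diabetic to 6 and 4 libraries (adjusted p = 0.0209). Rab4a, Rab4b, Rab8a, Rab11a, Rab11b, Rab13, Rab14, Rab15 and Rab25 had no called region.

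Among the regulated secretion Rabs, Rab37, a Rab of secretory granules, held the only call of 16 tested regions. It gained chr11:115104966-115105465 inside the gene, from 2 control and 3 diabetic unstimulated to 6 and 6 stimulated libraries (adjusted p = 0.0235, Fisher's exact test). Its fold was 14.2 in stimulated diabetic replicate 6 and 5.8 to 8.87 in the other stimulated libraries. The unstimulated libraries with a peak had 4.185 to 5.49. The members placed in none of these roles had 3 losses of 10 tested. Rab39 and Rab36 each went from 6 and 6 unstimulated libraries to 2 control and 4 diabetic stimulated ones (adjusted p = 0.0489 each). Rab39b lost a region 44028 bp before its gene, from 4 control and 3 diabetic unstimulated libraries to 0 (adjusted p = 0.0235). The Rab39b call held in 1 of the 5 alternatives, and with lists of equal length its region could not be tested. Rab5if, not a GTPase, lost a region 871 bp after its start, from 5 and 6 to 1 and 3 libraries (adjusted p = 0.0437), and Rab3ip had no call. The calls at Rab8b near its start, Rab36, Rab39 and Rab18 were each lost when certain single libraries were left out; the other 20 calls held without each of the 24 libraries.

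None of the 24 called regions overlapped one of the 62 promoter windows, which exist for 15 of the 20 members with a call. Calls did occur near starts: of 56 Rab regions within 1 kb of a start, 36 were in all 24 libraries, and 7 could be tested, with 1 gained (Rab8b) and 2 lost (Rab29 and Rab5if). These are 42.9% of the tested Rab regions there, against 14.1% over all regions within 1 kb of a start, a share that rests on 7 regions and was not tested. Farther away 23.1% of the tested Rab regions were called, against 28.9% over all regions. Gene bodies outside that distance held 143 regions, 55 tested, with 5 gained and 8 lost. Upstream regions numbered 28, 14 tested, with 1 gained and 4 lost, and downstream regions 17, 11 tested, with 0 calls. Another 23 regions, 11 of them tested, lay outside the bodies of members without a start in the table and could not be placed up- or downstream; 1 was gained (Rab38) and 2 were lost (Rab36 and Rab18). Over all regions 67.2% of those within 1 kb of a start and 21.9% of those farther away were in all 24 libraries, and the Rab regions had 64.3% and 21.8%.

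**Figure D4:**
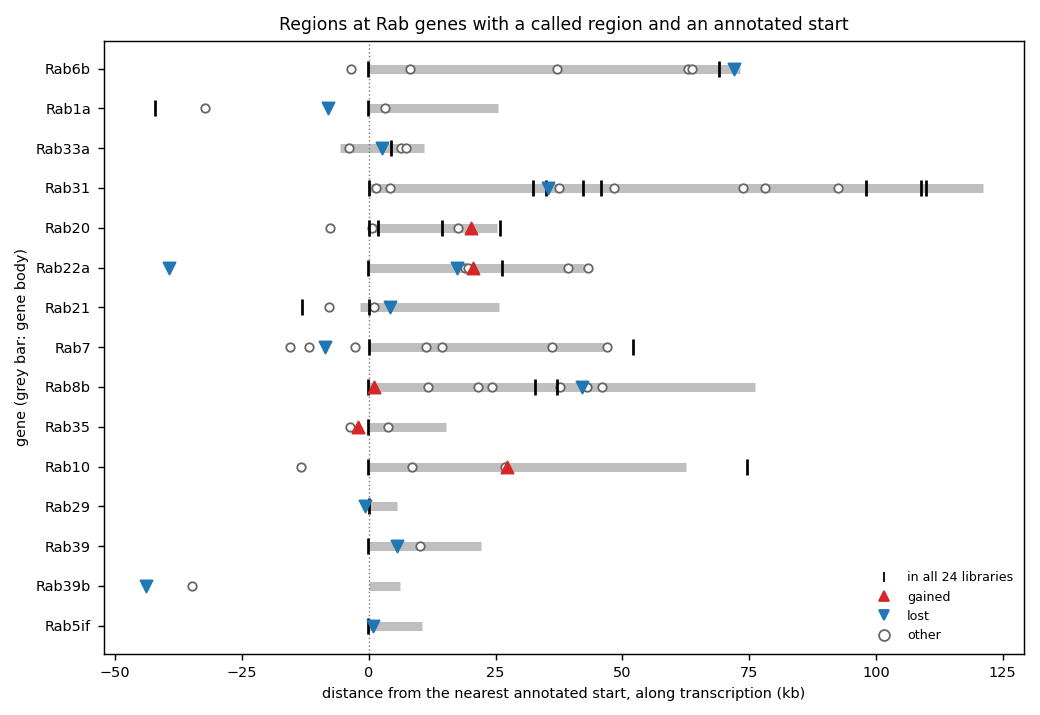
Regions of the 15 members that have a called region and a start in the promoter table, by distance from the nearest start along transcription (horizontal axis, kb); grey bars are gene bodies. Black ticks are regions in all 24 libraries and sit at the start of most genes; gained regions (red, pointing up) and lost regions (blue, pointing down) lie in bodies and flanks, 3 of them within 1 kb of a start, and the lost Rab22a region stands at 39.4 kb before the start.

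Peaks per gene were compared as a second measure, with a two-sided exact permutation test per gene and Benjamini-Hochberg adjustment over all genes that could reach an unadjusted p under 0.05. Of 49 members tested with phenotypes pooled, 1 rose and 6 fell. Over all genes 12.8% were called, 2.73% higher and 10.1% lower. The median difference was -0.417 peaks for the members and -0.25 for all genes. Rab10 held 2 to 3 peaks (median 2.0) in unstimulated and 2 to 6 (median 3.0) in stimulated libraries, and its mean rose from 2.42 to 3.58 (adjusted p = 0.0324, permutation). Rab31 held 12 to 14 peaks (median 14) in unstimulated and 9 to 13 (median 11) in stimulated libraries, with 13.2 and 10.8 as means (adjusted p = 0.00562, permutation). For both genes the states overlapped.

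Rab22a held 4 to 7 peaks (median 5.0) unstimulated and 3 to 5 (median 4.0) stimulated, a fall from a mean of 5.33 to 3.83 (adjusted p = 0.0104, permutation). Rab6b fell from 5.75 to 4.25 (adjusted p = 0.0423), Rab2a from 4.5 to 3.33 (adjusted p = 0.0268) and Rab33a from 3.42 to 2.08 (adjusted p = 0.0355), all by permutation. Rab39b held 0 to 2 peaks unstimulated and 0 to 1 stimulated (adjusted p = 0.0170, permutation). Each of these 7 genes also held a region called in the same direction, which rests on the same peaks and is not separate evidence. With lists of equal length Rab31 and Rab10 still passed, while Rab22a (adjusted p = 0.0756), Rab33a (0.0755), Rab6b (0.124), Rab2a (0.450) and Rab39b, which could then not be tested, did not.

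In control macrophages alone, 6 against 6 libraries, 9 of 41 testable Rab regions were called (22%, with 35.9% over all regions, 8.41% gained and 27.5% lost). The 1 gained region was that inside Rab38. The 8 lost regions were at Rab22a (both lost ones), Rab6b, Rab31, Rab33a, Rab8b, Rab7 and Rab21, with adjusted p of 0.0173 or 0.0422 (Fisher's exact test). In diabetic macrophages alone 2 of 37 testable Rab regions were called (5.41%, with 8.92% over all regions, 5.47% gained and 3.44% lost), both at Rab22a: the distal region was lost and the region 20495 bp into the gene was gained (adjusted p = 0.0243 each). With lists of equal length the diabetic comparison called 13 Rab regions, 7 gained and 6 lost, with 32.4% of all regions called. The response to stimulation was compared between phenotypes with Zelen's exact test per region. None of 34 testable Rab regions passed (0.0% of all regions), 0 had an unadjusted p under 0.05, and the smallest was 0.294. The differing numbers of calls in control and diabetic macrophages were therefore not shown to be a difference in response.

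No Rab region passed the threshold between diabetic and control macrophages, but these comparisons could not have called one. With 6 against 6 libraries the smallest possible p is 0.00216 (Fisher's exact test). Over all regions 137 of 8788 tested in unstimulated and 292 of 9681 in stimulated cells had an unadjusted p under 0.05. With so few, even a complete separation would have missed the adjusted threshold, so the absence of calls does not show that the phenotypes are alike. In unstimulated cells 0 of 33 testable Rab regions were called (0.0% over all regions; Fisher's exact test), 0 had an unadjusted p under 0.05, and the smallest was 0.242. In stimulated cells 0 of 31 were called (0.0% over all regions), and 1 had an unadjusted p under 0.05. That region, chr13:110080092-110080589 in the body of Rab3c, was found in 1 control and 6 diabetic stimulated libraries, and in 2 control and 3 diabetic unstimulated ones (p = 0.0152, adjusted p = 0.502, Fisher's exact test). Rab3c as a whole held 7 to 11 peaks (median 8.0) in stimulated control and 9 to 15 (median 13) in stimulated diabetic libraries (exact permutation p = 0.00433, adjusted p = 0.734). In unstimulated cells it held 9 to 13 (median 10.5) in control and 10 to 15 (median 11.5) in diabetic libraries. Rab3c was named after its values were seen. List length moves with this contrast: stimulated control lists were the shortest, and its part in the Rab3c values was not tested.

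Peaks per gene gave 0 Rab calls by permutation in each comparison of 6 against 6 libraries, where the smallest possible p is 0.00216, and 0.0% over all genes. Unadjusted p under 0.05 were reached by 9 members for stimulation in control, 2 for stimulation in diabetic, 0 for phenotype in unstimulated and 2 for phenotype in stimulated macrophages. These are 23.7%, 5.56%, 0.0% and 6.06% of the members tested, against 24.4%, 13.5%, 2.13% and 6.55% of all genes tested. The 9 were Rab21, Rab3c, Rab31, Rab22a, Rab2a, Rab7, Rab6b, Rab33a and Rab39b, each lower in stimulated control libraries. The smallest adjusted p among members was 0.0919 there, for Rab22a (permutation).

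The regulators and partners of the Rabs were taken as 4 lists. GEFs (34 genes) had 12 gained and 19 lost regions of 98 tested, 31.6% called, at 12 genes. GAPs (36 genes) had 11 gained and 29 lost of 129 tested (31.0%), at 17 genes. Effectors (50 genes) had 8 gained and 27 lost of 108 tested (32.4%), at 24 genes. Genes of prenylation and membrane cycling (7) had 0 gained and 3 lost of 6 tested, at Chm, the Rab escort protein, and Gdi2, which extracts Rabs from membranes. Losses outnumbered gains in each list, as over all regions, where 28.1% were called. The median difference in libraries was 0.0 in all 4 lists, and none of their regions was called between phenotypes in either state.

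Complete separations of 12 against 0 libraries marked 5 regions at these genes. They are named as the most extreme of the tested regions, and the share of such separations over all regions is not given here. Rabgef1, the Rab5 exchange factor Rabex-5, gained chr5:130196368-130196851, and Tbc1d23, a TBC-domain protein of endosome-to-Golgi transport, gained chr16:57175851-57176092. Rabgap1l, a TBC-domain GAP, gained chr1:160560302-160560878 and lost chr1:160301214-160301536. Rab11fip5, an effector of Rab11, lost chr6:85370738-85371055. All 5 lie inside gene bodies, each with adjusted p = 6.17e-05 (Fisher's exact test).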

How the data were processed

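ATAC-seq peak lists of 24 libraries (6 per group) were used, 1 list per library. Per the submitters' processing notes the tools included edgeR, DiffBind 2.4.8, MACS2 2.1.1, Bowtie2 2.2.6, FastQC 0.11.3 and Trim Galore, and the build was mm10. Settings, roles and any Tn5 shift were not given in the sources used here. As deposited, a peak carries a score, a fold enrichment (ratio), a −log10 p-value, a −log10 q-value and a summit position; the authors' lists end at a −log10 q-value of 1.302. These values only described, ranked or filtered peaks within a list.

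Peaks overlapping by at least 1 bp were merged, and 80598 of 102580 regions, those in at least 2 libraries, were kept. A region went to the RefSeq (GRCm38.p6) protein-coding gene body nearest to its median summit, within 50 kb; 3 Rab peaks had tied genes and went to the shorter one. Exons, introns and UTRs were not resolved. Fisher's exact, Zelen's exact and exact permutation tests ran over all regions or genes with Benjamini-Hochberg adjustment (scipy 1.17.1, numpy 2.4.6, pandas 2.3.3), after being tested on simulated data. P-values measure the spread between these libraries. A total over members got no test.

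Members, roles, pathway lists and markers were chosen with earlier results of these data known. All members with a called region are named; values are given for the 14 called regions with the smallest adjusted p and for members passing on peaks per gene, and the other calls more briefly. Alternatives were equal list lengths, −log10 q-values of at least 5, a stricter overlap, all regions or genes in the adjustment, a 10 kb limit, region midpoints, the replicate block, leaving out single libraries, and leaving out Rab3ip or both members that are no GTPase. Starts and promoters came from a RefSeq table that held 50 members; the other 11 are named without a promoter: Rab7b, Rab36, Rab37, Rab26, Rab44, Rab18, Rab27b, Rab2a, Rab38, Rab30 and Rab4a.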

Additional observations from a re-analysis of the deposited data

Results flagged for a closer look

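Stimulated control replicate 6 held 198 Rab peaks, far from the 141 to 158 of the other 5 libraries of its group. Its whole list, at 54960 peaks, was also the longest of the group. Unstimulated diabetic replicate 3 had peaks at 56 members, against 53 to 54 in the other 5 libraries. A gap of this relative size arises by chance in about 1 in 20 groups.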

How the results depend on the processing

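No direction reversed in any alternative run, but the lost region inside Rab8b was equally frequent in both states where peaks had to cover most of it. Of the 24 pooled calls, 19 were kept with lists of equal length, 18 with peaks of −log10 q of at least 5, 15 where peaks had to cover most of a region, and 15 with all regions in the adjustment, which left 5 gained and 10 lost. Leaving out single libraries was run for the pooled comparison only, and gave 7 to 9 gained and 13 to 25 lost regions. Both phenotype comparisons had 0 calls with lists of equal length. Diabetic calls (2) became 13 with lists of equal length, 4 at −log10 q of at least 5, 1 within 10 kb and 0 with all regions in the adjustment. Control calls (9) became 17 with the stricter overlap and 0 with all regions in the adjustment. The losses with all regions come from the larger number of regions adjusted over; the cause of the other changes was not tested. The 5 alternatives behind single calls were equal list lengths, the −log10 q minimum, the stricter overlap, all regions in the adjustment and the replicate block.

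Libraries with the same replicate number had correlations of -0.054 to 0.016, so no pairing was seen. This cannot exclude that such libraries came from the same mouse. With the replicate block 7 regions were gained and 13 lost, and members passing on peaks per gene went from 7 to 4, without Rab10, Rab2a and Rab33a. In control alone 3 members passed, all lower, at −log10 q of at least 5, in place of 0. Mean Rab peaks per library in unstimulated control, unstimulated diabetic, stimulated control and stimulated diabetic macrophages were 144.2, 147.2, 143.0 and 146.0 with lists of equal length, 167.0, 172.5, 144.8 and 162.3 within 10 kb, and 153.2, 156.5, 122.7 and 142.2 at −log10 q of at least 5. Without Rab3ip and Rab5if, an alternative chosen after seeing the data, 8 regions were gained and 15 lost. List length and the calling threshold limit what an absent peak can show.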

Other observations

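With all lists cut to the same length, 4 further Rab regions passed that had not passed before. Rab9, a Rab of transport from late endosomes to the trans-Golgi network, gained chrX:166478594-166479225, present in 10 stimulated libraries and in 1 unstimulated library, of 12 each (adjusted p = 0.00565, Fisher's exact test). Rab31 lost chr17:65768362-65768825, from 12 unstimulated to 2 stimulated libraries (adjusted p = 0.00107). Rab3c had 1 region in each direction: chr13:110277685-110278044 went from 4 to 12 libraries (adjusted p = 0.00920), and chr13:110031928-110032324 from 9 to 2 (adjusted p = 0.0472).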
